A study of Rattus norvegicus with 2 samples.

Results

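The cells described here were the CD3-rule cells of rat meniscus preparations, meaning cell barcodes with at least 2 unique molecular identifiers (UMIs, each counting 1 captured RNA molecule) summed over Cd3e, Cd3d and Cd3g. A barcode also needed at least 500 detected genes, at most 20% of its UMIs in mitochondrial genes, no UMI of the plasma cell receptor gene Tnfrsf17 and fewer than 10 UMIs of the myeloid lysozyme gene Lyz2. In all, 815 of 14858 kept cells met the rule, 313 of 6085 in the aged library (5.14%, exact 95% interval 4.60 to 5.73%) and 502 of 8773 in the young library (5.72%, 5.25 to 6.23%). The study profiled single cells of the rat meniscus (a crescent of fibrocartilage in the knee joint) from aged and young animals by 10x Genomics droplet sequencing after enzymatic digestion and a flow sort for living cells. There was 1 library per age (AM, aged, and YM, young). Strain, sex, exact ages, treatment and the number of animals behind each library were not given in the sources used here. With 1 library per age no test between ages was possible, so intervals cover counting error only, and age cannot be told apart from the animal, the dissection or the library. Across the kept cells the median depth was 3686 UMIs in the aged library and 3846 in the young library. The 2 libraries shared 18 barcodes, none of which was a CD3-rule cell in both.

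CD3 is the signalling module of the T cell receptor. Its epsilon, delta and gamma chains, encoded by Cd3e, Cd3d and Cd3g, pair with each other and with the zeta chain encoded by Cd247, and they carry the antigen-binding receptor to the surface. Once the receptor is engaged, the kinase Lck phosphorylates these chains, Zap70 docks on them, and the adaptor Lat passes the signal on. T cells then divide broadly into CD8 cells, which kill infected or altered cells with granzymes and Fas ligand, and CD4 cells, which help or restrain other cells.

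The T cell label held for most of the aged CD3-rule cells and for few of the young ones. The young set was led by cells that carried Cd3g together with Cd79a and Cd79b, which encode the signalling chains of the B cell receptor. Summed over all CD3-rule cells, Cd3e stood at 222 counts per 1000000 UMIs (CPM) in the aged and 62.7 CPM in the young library, and Cd3d at 243 and 53.5 CPM. Cd3g was closer, at 227 and 169 CPM. Cd3g made up 32.8% of the aged and 59.2% of the young CD3 UMIs. The cells were chosen by these CD3 counts, with Tnfrsf17 and Lyz2, so the levels are given as a description.

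Because of this mixture the CD3-rule cells were divided in 3 groups, a division chosen after the values were seen. Cells with at least 2 Cd79a plus Cd79b UMIs are called CD79-high here. Cells with at most 1 such UMI and at least 1 Cd3e or Cd3d UMI are called T-like. The remainder had Cd3g UMIs alone and are called Cd3g-only. The T-like group held 195 aged cells (62.3% of the aged CD3-rule cells, 56.7 to 67.7%) and 77 young cells (15.3%, 12.3 to 18.8%). The CD79-high group held 107 aged (34.2%) and 398 young cells (79.3%). The Cd3g-only group held 11 aged and 27 young cells. As shares of all kept cells, T-like cells made up 3.20% (2.78 to 3.68%) of the aged and 0.878% (0.693 to 1.10%) of the young library, and CD79-high cells 1.76% (1.44 to 2.12%) and 4.54% (4.11 to 4.99%). Without cells with markers of other types (at least 2 UMIs summed over a short B lineage, granulocyte, macrophage, erythroid or connective tissue set) the T-like shares were 2.56% aged and 0.251% young. That cut was made at full depth. A longer neutrophil list had a median of 3 UMIs per young and 1 per aged T-like cell, and 5 young and 87 aged cells had none. How far depth or RNA from outside the cell entered this drop was not tested.

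**Figure D1:**
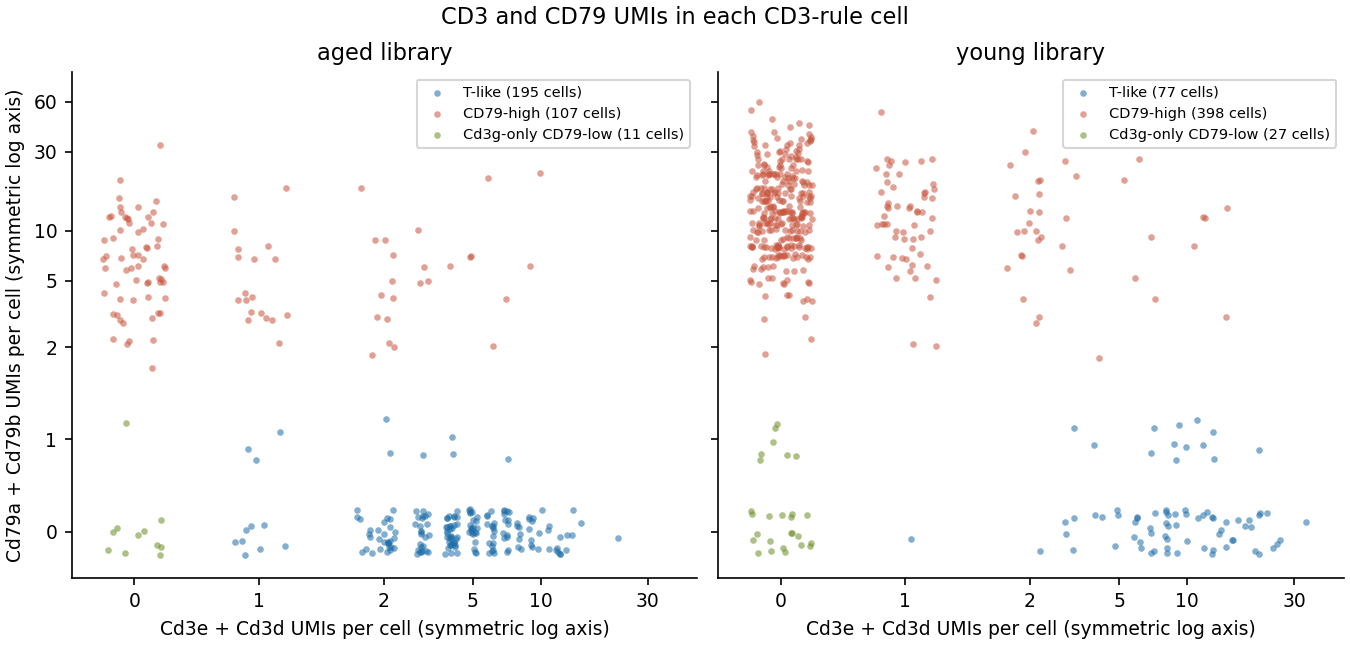
Each point is 1 CD3-rule cell, placed by its Cd3e plus Cd3d UMIs (horizontal) and its Cd79a plus Cd79b UMIs (vertical), with small random offsets on both axes, in the aged (left) and young (right) library. Most of the 398 young CD79-high cells lie at 0 Cd3e and Cd3d UMIs, while the 195 aged T-like cells lie along the bottom, at a median of 4 Cd3e plus Cd3d UMIs.

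**Figure D2:**
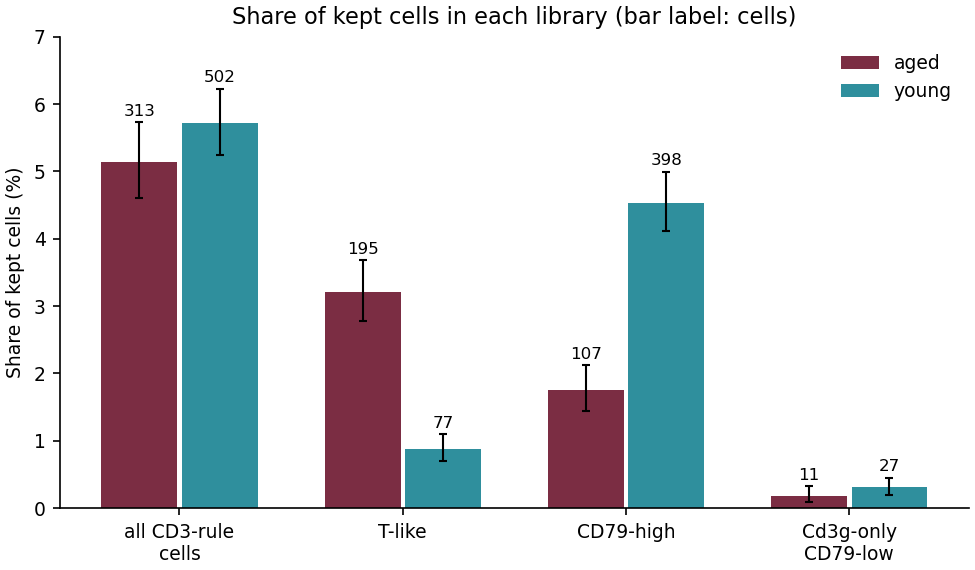
Bars give each group's share of kept cells in percent, with exact 95% binomial intervals and the number of cells above each bar. The whole CD3-rule set takes 5.14% and 5.72% of the libraries, while its T-like portion takes 3.20% and 0.878%.

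Depth differed between the groups. CD79-high cells had a median of 11458 UMIs in the aged and 16792 in the young library, against 3466 and 6701 in T-like cells, so that a deeply read cell reached 2 CD3 UMIs more easily. When each kept cell was thinned at random to 1000 UMIs before the rule was applied, the rule still held for 106 of 5994 cells of the aged library (1.77%, 1.45 to 2.13%) and for 62 of 8756 of the young library (0.708%, 0.543 to 0.907%). At that depth 97 aged (1.62%) and 48 young cells (0.548%) met the T-like definition, and 4 aged and 7 young cells met the CD79-high one. Thinning lowers the CD79 count as well, so a CD79-bearing cell can fall under the cut of 2 and count as T-like. At least 1 CD79 UMI was held by 7 aged and 15 young rule cells at 1000 UMIs. At 2000 UMIs the T-like shares were 3.50% of 4545 aged cells and 0.851% of 8221 young cells, and 10 aged and 40 young cells were CD79-high. Cells under the target depth were left out, so 4545 of 6085 aged and 8221 of 8773 young kept cells remained at 2000 UMIs. Of the T-like cells 188 of 195 aged and all 77 young ones were that deep. The unequal loss of shallow cells enters these shares. The aged share of CD3-rule cells was thus below the young one at full depth and above it at 1000 and 2000 UMIs, while the T-like share was higher in the aged library at all 3 depths.

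The values near the threshold showed the same mixture. Of the cells with exactly 2 CD3 UMIs, just inside the rule, 70 of 97 aged (72.2%) and 204 of 210 young cells (97.1%) were CD79-high. Of those with 1 CD3 UMI, just outside, 81.9% of 354 aged and 97.7% of 825 young cells were. At 4 or more CD3 UMIs the share was 10.0% of 180 aged and 54.1% of 194 young cells. Among cells with at least 2 CD3 UMIs, the Tnfrsf17 condition left out 12 aged and 4 young cells and the Lyz2 condition 11 aged and 22 young cells.

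Some genes that took no part in the rule separated T-like from CD79-high cells, and others did not. Lck, Skap1 (an adaptor of T cell adhesion), Cd2 (a co-stimulatory adhesion receptor) and Lat together gave a median of 5 UMIs per aged T-like cell and 10 per young T-like cell, and 6 of 195 aged and none of 77 young T-like cells had none. In CD79-high cells the median was 1 in each library, and 48.6% of the aged and 46.0% of the young cells had none. The same genes were also present in the 24 young natural killer cells without a CD3 UMI. Lck was at 585, Cd2 at 601, Lat at 220 and Skap1 at 161 CPM there. These genes thus set T-like cells apart from CD79-high cells, but not from natural killer cells. Skap1 was at 212 (aged) and 280 CPM (young) in T-like cells but at 7.88 and 1.86 CPM in CD79-high cells. Lck was at 367 and 401 CPM in T-like cells and at 75.9 and 62.1 CPM in CD79-high cells. Il7r, also on the T cell marker list, was at 40.4 and 26.8 CPM in T-like cells and at 45.1 and 27.2 CPM in CD79-high cells. It was found in 14.9% of aged T-like and 34.6% of aged CD79-high cells. Thy1 went the other way, at 5.94 and 6.29 CPM in T-like cells and at 72.4 and 83.0 CPM in CD79-high cells.

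CD79-high CD3-rule cells carried genes of dividing B cell precursors. Igll1, a chain of the surrogate light chain that developing B cells use before they make a true light chain, was present in 60 of the 107 aged and 262 of the 398 young cells, at 277 and 525 CPM. The same gene was at 30.9 and 55.1 CPM in T-like cells. Mki67, a proliferation marker, was at 750.0 (aged) and 991 CPM (young) in CD79-high cells against 87.9 and 176 CPM in T-like cells. Ebf1, a B lineage transcription factor, was at 405 and 396 CPM in CD79-high cells and at 36.8 and 18.9 CPM in T-like cells. Cd3g transcripts were not limited to the cells that met the rule. Among the kept cells outside it, Cd3g stood at 7.45 CPM in the aged and 15.9 CPM in the young library. Cd3e stood there at 1.54 and 0.607 CPM. The CD79-high sets below include cells that met the rule, which were chosen for their CD3 UMIs. Their values are therefore given as a description and do not show Cd3g outside the rule. In all kept CD79-high cells with at least 5 surrogate light chain UMIs (337 aged, 700 young), Cd3g stood at 38.7 and 62.4 CPM, Cd3d at 8.64 and 4.91 CPM and Cd3e at 1.94 and 1.19 CPM. After thinning to 1000 UMIs, 4.45% of those aged and 5.14% of those young cells had a Cd3g UMI, against 0.593% and 0.143% for Cd3e. In kept CD79-high cells with fewer surrogate light chain UMIs the Cd3g shares were 2.57% of 2687 aged and 3.03% of 5966 young cells.

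The Cd3g-only cells differed again. The 27 young ones were led by Siglech, a lectin receptor known as a marker of plasmacytoid dendritic cells in the mouse, with 218 UMIs in 25 cells, 558 CPM against 2.22 CPM in the rest of the young library. Irf8, a transcription factor of dendritic cell and monocyte development, was found in 26 of the 27 cells at 1748 CPM, and Tyrobp, an adaptor of activating receptors, in 26 of them at 6507 CPM. Kdr, Ccr9 and Gapt were also among their leading genes. Siglech was found in 5 of the 11 aged Cd3g-only cells, in none of the 195 aged T-like cells and in 1 of the 77 young T-like cells. A count of 0 in 195 cells allows a share of up to 1.54%. Ptcra, the pre-T cell receptor alpha chain, was found in 19 of the 27 young Cd3g-only cells at 156 CPM and in 2 aged and 2 young T-like cells.

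**Figure D3:**
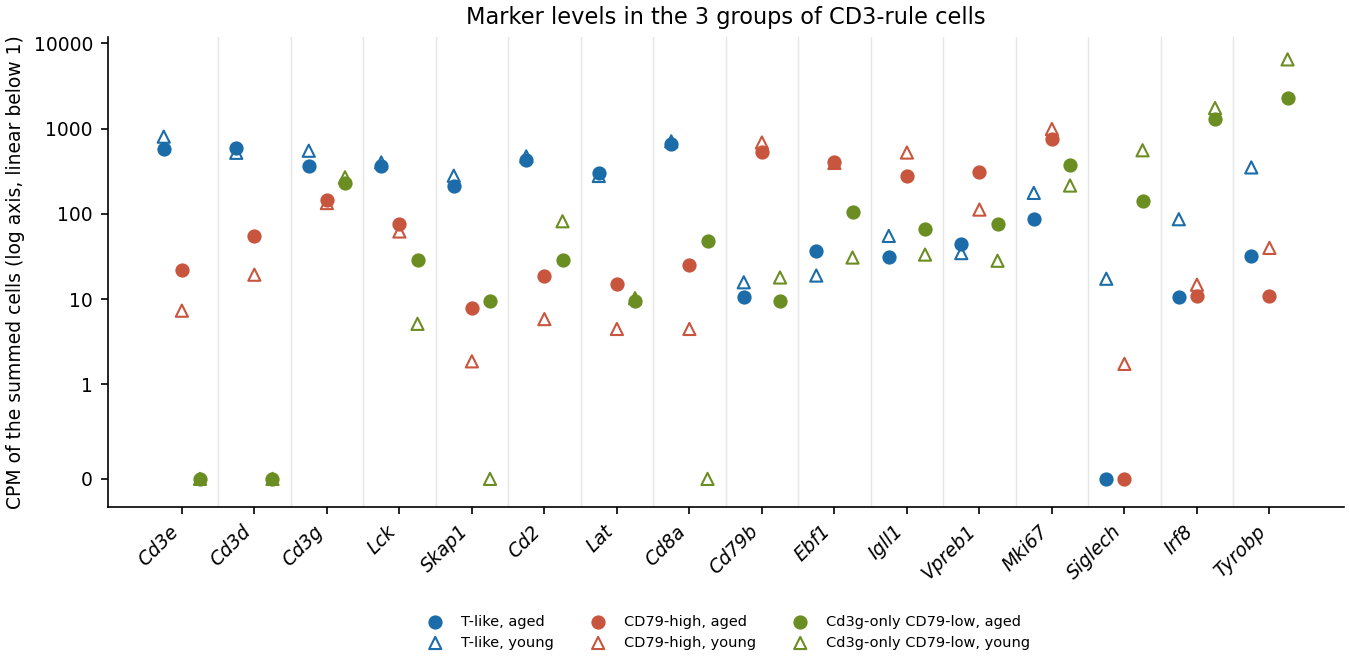
Points give the level of each gene in CPM, summed over the cells of a group, on a log axis that is linear below 1 (filled circles aged, open triangles young). Lck, Skap1, Cd2 and Lat are highest in the T-like cells (blue), Ebf1, Igll1 and Mki67 in the CD79-high cells (red), and Siglech, Irf8 and Tyrobp in the Cd3g-only cells (green). Cd79b, like the CD3 genes, was used to define the groups, so its place is a description.

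The 3 CD3 genes lie together on rat chromosome 8. The 250 bases before each start are shown because Cd3g went apart from Cd3e and Cd3d in CD79-high cells. All 3 genes matched an entry. The sequences are from RefSeq, build GRCr8, read along each gene's own strand, Cd3e at chr8:54211771-54212020 (minus), Cd3d at chr8:54185269-54185518 (plus) and Cd3g at chr8:54183919-54184168 (minus). Capitals mark GGAA, the core of ETS factor motifs, and CAGCTG, an E-box, searched on both strands, so GGAA also appears as TTCC.
Cd3e: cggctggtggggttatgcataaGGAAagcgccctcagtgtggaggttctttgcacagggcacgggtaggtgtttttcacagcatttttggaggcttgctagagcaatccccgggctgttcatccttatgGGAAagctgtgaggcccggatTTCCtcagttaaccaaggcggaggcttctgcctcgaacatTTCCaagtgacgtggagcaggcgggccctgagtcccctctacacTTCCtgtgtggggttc
Cd3d: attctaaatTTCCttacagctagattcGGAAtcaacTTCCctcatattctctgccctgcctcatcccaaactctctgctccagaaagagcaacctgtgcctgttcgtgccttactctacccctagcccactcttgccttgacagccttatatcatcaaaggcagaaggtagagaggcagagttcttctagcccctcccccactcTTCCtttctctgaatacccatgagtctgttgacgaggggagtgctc
Cd3g: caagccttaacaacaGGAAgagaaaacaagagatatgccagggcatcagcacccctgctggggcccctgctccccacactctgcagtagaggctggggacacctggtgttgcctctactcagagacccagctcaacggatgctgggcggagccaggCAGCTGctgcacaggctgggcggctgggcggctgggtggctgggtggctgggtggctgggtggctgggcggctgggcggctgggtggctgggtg
The Cd3e window held 5 GGAA matches, the Cd3d window 4 and the Cd3g window 1. Only the Cd3g window, of these 3, held CAGCTG, with 1 match. Of 33469 rat promoter windows of the same length, 93.2% held GGAA and 12.0% held CAGCTG. The matches are a description of these letters and say nothing of binding.

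Compared between ages over the whole rule, 561 of 9533 genes with at least 20 summed UMIs (5.88%) were at least 2-fold higher in the aged CD3-rule cells and 797 (8.36%) at least 2-fold lower. Most of the T cell lists had a median above 0, but the 9 measured genes of T cell precursors and recombination had a median log2 ratio of -0.75, with none higher and 3 lower. Of 21 measured genes of the receptor complex and its proximal signalling, 16 were at least 2-fold higher in the aged cells and none lower (median log2 ratio 1.98 against -0.16 over all genes). Of 16 cytotoxic effector genes, 15 were higher and none lower. Of 14 B lineage genes, none was higher and 6 were lower. Examples were Cd8a, at 252 and 53.5 CPM (log2 ratio 2.24), Skap1 at 81.1 and 21.2 CPM (1.94), and Vpreb2, a surrogate light chain gene, at 47.0 and 296 CPM (-2.65). The group shares above differed between the libraries in the same cells, and in T-like cells alone the log2 ratios of Cd8a and Skap1 were -0.12 and -0.41. Fewer cells of a kind and less RNA per cell cannot be told apart in such sums.

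The comparisons that follow therefore used the T-like cells, 195 aged with 841444 UMIs and 77 young with 635442 UMIs. The genes they led with against the rest of each library, given as a description since the cells were chosen on CD3, held T cell genes in both, and the highest in the young library was the lectin-like receptor gene Klra22, at 327 CPM against 0.987 CPM in the rest. Of 3110 genes with at least 20 UMIs in each library's T-like cells, 242 (7.78%) were at least 2-fold above the rest of the library in both. The highest by the lower of the 2 ratios were Trat1 (an adaptor that stabilises the receptor complex), Cd27 and Cd28 (co-stimulatory receptors), Baiap3, Art2b, Skap1, Klrb1c, Cd8a, Bicdl1, Cd8b, Bcl11b (a transcription factor of T lineage commitment), Txk (a Tec-family kinase), Klrd1, Lag3 and Icos. Trat1 was at 114 (aged) and 59.8 CPM (young) in T-like cells and at 0.317 and 0.228 CPM in the rest of each library. Art2b, which encodes the rat T cell alloantigen RT6, was at 194 and 67.7 CPM, found in 88 of 195 aged and 25 of 77 young cells. A gene with no annotated function, AABR07017902.1, was named after its values were seen. Of the T-like cells 178 of 195 aged and 71 of 77 young ones held it, at 986 and 1275 CPM against 4.68 and 3.55 CPM in the rest.

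The core signalling genes named here were within 2-fold between ages in T-like cells. Lck stood at 367 CPM aged and 401 CPM young (log2 ratio -0.13, 95% counting interval -0.37 to 0.12), Cd2 at 428 and 472 CPM (-0.14, -0.37 to 0.08), Lat at 302 and 279 CPM (0.12, -0.17 to 0.40) and Zap70 at 89.1 and 92.8 CPM (-0.06, -0.57 to 0.46). These 4 intervals include 0. Across all 5430 genes with at least 20 summed UMIs, 320 (5.89%) were at least 2-fold higher in the aged T-like cells and 491 (9.04%) at least 2-fold lower, with a median log2 ratio of -0.11. Of the 21 measured receptor complex and signalling genes, 2 were higher (Ptpn22 and Sh2d2a) and 2 lower (Txk and Sh2d1a). Cd27 was at 239 and 386 CPM (-0.69, -0.97 to -0.42). Of 18 nuclear oxidative phosphorylation genes, none was 2-fold apart in either direction.

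A few cells with RNA of other cell types touched these sums. Of the 1748 stromal-list UMIs in young T-like cells, 1667 lay in 1 cell, and of the 7956 erythroid-list UMIs in aged T-like cells, 7811 lay in 4 cells. In aged T-like cells 10 of 13 stromal genes, 10 of 10 erythroid, 10 of 14 neutrophil, 9 of 14 monocyte and macrophage and 12 of 15 B lineage genes had a UMI, and in young T-like cells 13, 8, 13, 10 and 11 of them. Cd79a was at 0 in the aged T-like cells, which were chosen to hold at most 1 CD79 UMI. Pax5 and Vpreb3 were at 0 at both ages, Derl3 was at 0 at both ages, and the endothelial genes Cdh5 and Emcn were at 0 at both ages. All 15 genes that ranked lowest in the aged cells by the naming rule (Igfbp5, Mgp, Pla2g2a, Lox, Plat, Col1a1, Chi3l1, Thbs4, Fmod, Sparc, Kera, Fn1, Mmp3, Timp1 and Cilp2) are genes that connective tissue cells are known to make. Col1a1 had 8 UMIs in the aged and 559 in the young cells. Without the 10 aged and 6 young cells that held at least 50 UMIs of 1 of the stromal, erythroid, neutrophil, B lineage or natural killer lists, a choice made after the data were seen, none of these 15 genes ranked among the lowest 15. Mgp, Col1a1, Fmod and Sparc are themselves on the stromal list, so this follows in part from how the cells were left out. The lowest 15 then were Klra22, Spry2, Dmrtc2, Hivep3, RT1-N2, Ly49s5, Palm, Klrb1b, Sipa1, Fcer1g, Rdm1, Ly49s6, Sh2d3c, Rhob and Ints6. Spry2, an inhibitor of growth factor signalling, had 4 UMIs in the aged and 42 in the young cells, the latter in 26 cells (log2 ratio -3.90, 95% counting interval -5.84 to -2.44). In the remaining 185 aged and 71 young cells, 338 of 4903 genes (6.89%) were higher and 364 (7.42%) lower. Ratios without these cells are given below where they differed by over 1.5 times.

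The genes that stood highest in aged T-like cells included effector and receptor genes. Gzmk, the serine protease granzyme K, had 367 UMIs spread over 38 aged cells and 18 over 4 young ones, 436 CPM against 28.3 CPM (log2 ratio 3.94, 3.26 to 4.72). Faslg, the Fas ligand that triggers death of Fas-bearing cells, had 142 UMIs in 63 aged cells and 8 in 4 young cells (3.74, 2.73 to 4.98). Rora, a nuclear receptor of type 17 and innate-like lymphocytes, had 89 UMIs in 52 aged and 7 in 6 young cells (3.26, 2.16 to 4.62). Each was spread over many aged cells, and no aged cell held over 28 of the Gzmk, 8 of the Faslg or 6 of the Rora UMIs. The other genes of the top 15 were RT1-Bb, Birc3, Hspa1b, Bcl6, Ier3, Cd83, Entpd2, Bhlhe40, Pkib, Usp36, RT1-Db1 and Tiparp. Birc3, an inhibitor of apoptosis, had 47 and 2 UMIs (4.15, 2.22 to 7.24). Bcl6, a repressor needed in follicular helper T cells, had 45 and 3 (3.50, 1.86 to 5.83). Hspa1b, an inducible heat shock chaperone, had 56 and 3, of which 25 lay in 1 aged cell. Without the cells of other types the ratio of Bcl6 was 4.78 and that of Hspa1b 4.45 in place of 3.82. Ier3 had 43 and 0 UMIs, at least 10.8-fold higher against a floor of 3 counts, and 25 of the 43 lay in 1 cell. In the rest of the library Ier3 was also higher in the aged, at 402 and 62.7 CPM, and Hspa1b at 109 and 19.6 CPM. The part of such a library-wide difference in the T-like values was not tested.

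**Figure D4:**
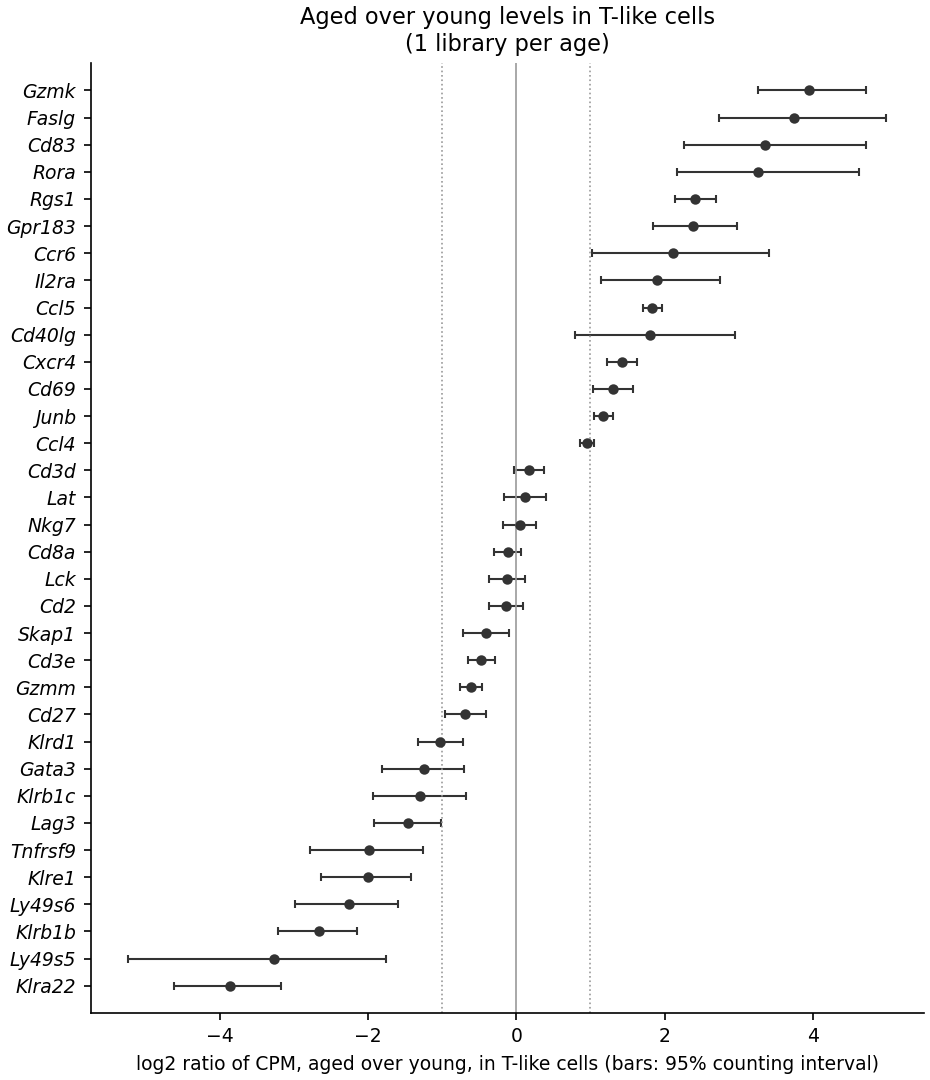
Points give the log2 ratio of CPM, aged over young, for genes in T-like cells, with 95% counting intervals (dotted lines mark 2-fold, 1 library per age). Gzmk and Faslg lie farthest to the right, at 3.94 and 3.74, Lck, Cd2 and Lat lie near 0, and Klra22 lies farthest to the left, at -3.86.

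Of 15 measured cytotoxic effector genes, 3 were at least 2-fold higher in aged T-like cells and 1 lower (median log2 ratio 0.41). The 3 higher ones were Gzmk, Ccl5 and Ifng. Over all genes 5.89% were higher and 9.04% lower. Ccl5, a chemokine that draws T cells and monocytes, had 2777 UMIs in 69 aged cells and 589 in 9 young cells (1.83, 1.70 to 1.96), and 350 of the young UMIs lay in 1 cell. Ifng, the cytokine interferon gamma, had 37 UMIs in 16 aged and 10 in 5 young cells (1.48, 0.45 to 2.66). Ccl4 had 3082 UMIs in 82 aged and 1203 in 42 young cells (0.95, 0.86 to 1.05). Its neighbour in function, Ccl3, had 850 and 860 UMIs (-0.42, -0.56 to -0.28). Nkg7, a granule membrane protein, was at 483 and 467 CPM (0.05, -0.17 to 0.27), and Prf1, the pore-forming protein perforin, at 52.3 and 39.3 CPM (0.41, -0.33 to 1.18). Gzmm was at 790.3 and 1209 CPM (-0.61, -0.76 to -0.46). The granzyme genes thus did not move as a block, with Gzmk higher and Gzmm lower in the aged cells. In the rest of the library Gzmm was at 8.03 CPM aged and 39.9 CPM young. Gzmk and Ccl5 were not particular to T-like cells. In the 24 young natural killer cells without a CD3 UMI, Gzmk was at 2317 CPM and Ccl5 at 15053.5 CPM, while Ifng was at 10.7 CPM.

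Of 31 measured genes of memory, homing and tissue residency, 8 were at least 2-fold higher in aged T-like cells and 1 was lower. The shares over all genes were 5.89% and 9.04%. Rgs1, which damps signalling of chemokine receptors, was at 1028 and 194 CPM (2.41, 2.13 to 2.69), found in 142 of 195 aged and 42 of 77 young cells. Cxcr4, the receptor of the bone marrow chemokine CXCL12, was at 1090 and 406 CPM (1.42, 1.22 to 1.63). Cd69, an early activation receptor that also holds T cells in tissue, was at 566 and 230 CPM (1.30, 1.03 to 1.58). Ccr6, a receptor of type 17 T cells, had 46 UMIs in 22 aged and 8 in 4 young cells (2.12, 1.02 to 3.41). S100a4, S100a6 and Lgals3 were also among the 8, and Ccr10, with 4 and 16 UMIs, was the 1 lower. Gpr183, an oxysterol receptor that guides lymphocytes, was at 256 and 48.8 CPM (2.39, 1.84 to 2.98). In the rest of the library the log2 ratios were 1.62 for Rgs1, 1.09 for Gpr183, 0.92 for Cd69 and -0.22 for Cxcr4.

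Of 10 measured genes of naive and recirculating T cells, none was at least 2-fold higher in aged T-like cells and 2 were lower (Klf2 and Tcf7), against 9.04% of all genes lower. The median log2 ratio of the 10 was -0.17 against -0.11 over all genes. Klf2, a transcription factor that maintains the exit of T cells from tissue, had 3 UMIs in 3 aged and 21 in 13 young cells (-3.21, -5.60 to -1.47). In the rest of the library Klf2 was at 6.22 and 41.3 CPM (-2.73). Tcf7 had 20 and 33 UMIs (-1.13, -2.01 to -0.28). Lef1 was at 149 and 190 CPM (-0.36, -0.73 to 0.01). S1pr1, the receptor that draws T cells out of tissue, was at 158 and 96.0 CPM (0.72, 0.27 to 1.18).

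Most of the lectin-like receptor genes of natural killer cells named here were lower in aged T-like cells. Of 8 measured genes on the natural killer list, none was at least 2-fold higher in the aged cells and 6 were lower (median log2 ratio -1.80), and without the 10 aged and 6 young cells above 5 of 6 were lower (-1.81). Over all genes 9.04% were lower, and 7.42% without those cells. Among the 6 lower ones was Fcer1g, a signalling chain of activating receptors, at -2.05, which turned to 1.71 without cells with markers of other types. That setting left few young T-like cells, 0.251% of the young kept cells. The Ly49 genes, Klrd1 and Klrk1 described next are not on that list. Klra22, a receptor of the Ly49 family, which bind major histocompatibility complex (MHC) class I, had 19 UMIs in 10 of 195 aged cells and 208 UMIs in 40 of 77 young cells (-3.86, -4.62 to -3.18). Ly49s6, of the same family, had 24 UMIs in 15 aged and 87 in 28 young cells (-2.26, -2.98 to -1.60), and Ly49s5 had 4 in 3 and 29 in 16 cells (-3.26, -5.23 to -1.75). Klrb1b had 37 UMIs in 19 aged and 177 in 42 young cells (-2.66, -3.22 to -2.15), and Klre1 had 32 in 26 and 97 in 42 cells (-2.01, -2.63 to -1.42). Klrd1, or CD94, was nearer, at 179 and 365 CPM (-1.02, -1.33 to -0.72), and Klrk1, or NKG2D, was at 108 and 67.7 CPM (0.68, 0.14 to 1.23). The Ly49 genes are near copies of each other, so reads may have been assigned among them with uncertainty. Tyrobp had 27 and 223 UMIs, of which 187 lay in 1 young cell, and its log2 ratio was -3.45 with and -1.23 without the cells of other types. Klre1 was also lower in the rest of the aged library (0.122 and 2.28 CPM), while Klrb1b was higher there (32.8 and 16.0 CPM). Natural killer cells without a CD3 UMI numbered 3 in the aged and 24 in the young library.

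At least 3 UMIs summed over the natural killer list without Cd7 were found in 22 of 195 aged T-like cells (11.3%, 7.21 to 16.6%) and in 44 of 77 young ones (57.1%, 45.4 to 68.4%). That list holds receptor genes and the signalling genes Tyrobp and Fcer1g, but not Klrd1 or the Ly49 genes. The cut was applied at full depth, at a median of 3466 UMIs in aged and 6701 in young T-like cells. Of the 22 aged and 44 young cells, 18 and 36 had a Cd8a or Cd8b UMI. Skap1, which took no part in the selection, stood in them at 155 CPM aged and 287 CPM young, with a UMI in 14 of the 22 aged and 38 of the 44 young cells. In young natural killer cells without a CD3 UMI it was at 161 CPM, found in 13 of 24. The 44 young cells held 588 of the 589 young Ccl5 UMIs, all 18 young Gzmk UMIs and 721 of 768 young Gzmm UMIs. In the aged library the 173 cells under 3 such UMIs still held 246 of the 367 Gzmk UMIs and 2132 of the 2777 Ccl5 UMIs.

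The shares of T-like cells with a CD8 UMI (Cd8a or Cd8b) had overlapping intervals at the 2 ages. Of the 195 aged cells 118 had a Cd8a or Cd8b UMI (60.5%, 53.3 to 67.4%), and of the 77 young cells 50 had one (64.9%, 53.2 to 75.5%). Cd8a, the CD8 alpha chain, was at 654 and 710 CPM (-0.12, -0.30 to 0.06) and Cd8b at 196 and 142 CPM (0.47, 0.09 to 0.86). Cd8b was found in 68 aged (34.9%) and 30 young cells (39.0%). Cd8a alone does not mark a T cell here. It was found in 14 of the 24 young natural killer cells without a CD3 UMI, at 241 CPM, while Cd8b had 0 UMIs there. Of the T-like cells with a CD8 UMI, 18 aged and 36 young ones held at least 3 natural killer list UMIs. Cd4 was found in 4 aged and 3 young T-like cells, too few to set the CD4 share. Within the cells with CD8, Klra22 was at 39.0 CPM aged and 443 CPM young, Gzmk at 585 and 21.5 CPM, Ccl5 at 5163 and 1313 CPM, Faslg at 242 and 14.4 CPM and Rgs1 at 1144 and 165 CPM. Within the cells without CD8, Gzmk was at 231 and 41.4 CPM, Faslg at 67.7 and 9.20 CPM and Rgs1 at 869 and 248 CPM. The age differences in Faslg and Rgs1 had the same direction with and without CD8. Klra22 had no UMI in the 77 aged cells without CD8 and 23 UMIs in the 27 young ones.

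The cells without a CD8 UMI carried genes of helper, regulatory and type 17 T cells. Icos was at 209 CPM aged and 152 CPM young in them, against 78.0 and 35.9 CPM in cells with CD8. Foxp3, the defining factor of regulatory T cells, was found in 6 aged cells (3.08%, 1.14 to 6.58%) and 6 young cells (7.79%, 2.91 to 16.2%), none of which had a CD8 UMI. Il17a or Il17f, type 17 cytokines, were found in 5 aged (2.56%, 0.838 to 5.88%) and 1 young cell (1.30%, 0.0329 to 7.02%), and each of these cells also had Rora and none had CD8. Il17a had 30 UMIs in the aged cells, 16 of them in 1 cell, and 1 in the young. Cd40lg, the helper ligand of CD40, had 46 UMIs in 30 aged and 10 in 7 young cells (1.80, 0.79 to 2.95), of which 11 aged and 2 young cells had a CD8 UMI. Gata3, a factor of type 2 helper and other T cells, had 44 and 79 UMIs in T-like cells (-1.25, -1.82 to -0.70), and was at 90.3 CPM aged and 271 CPM young in the cells without CD8. Tnfrsf9, the co-stimulatory receptor 4-1BB, had 21 and 63 UMIs (-1.99, -2.78 to -1.26), and 59 of the young UMIs lay in cells without CD8. Il2ra, the interleukin 2 receptor alpha chain, had 84 UMIs in 49 aged and 17 in 9 young cells (1.90, 1.14 to 2.75). Of 8 measured regulatory T cell genes Il2ra was higher, and Foxp3, Tnfrsf4, Tnfrsf9 and Tigit were lower, against 5.89% and 9.04% of all genes.

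Among inhibitory receptors, 3 of 9 measured genes were higher in aged T-like cells and 4 lower, against 5.89% and 9.04% of all genes. Pdcd1 (PD-1) had 25 and 8 UMIs (1.24, 0.05 to 2.60) and Cd200r1 36 and 3 (3.18, 1.52 to 5.52). Lag3, a receptor for MHC class II, went the other way, with 62 UMIs in 41 aged and 129 in 46 young cells (-1.46, -1.92 to -1.01). Lag3 was found mainly beside CD8, at 121 CPM aged and 256 CPM young in cells with CD8 and at 8.46 and 101 CPM in cells without. Ctla4 had 37 and 22 UMIs (0.34, -0.45 to 1.18).

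All 5 measured MHC class II genes were at least 2-fold higher in aged T-like cells, against 5.89% of all genes. Cd74, the invariant chain, was at 487 and 85.0 CPM (2.52, 2.11 to 2.96), and RT1-Db1 at 330.4 and 56.7 CPM (2.54, 2.04 to 3.09). For Cd74, 130 of the 410 aged UMIs lay in 1 cell. Unthinned, 53 of the 195 aged (27.2%) and 21 of the 77 young cells (27.3%) held any. After thinning each cell to 1000 UMIs, the shares were 12.8% (8.47 to 18.3%) aged and 3.90% (0.811 to 10.97%) young. These intervals overlapped. The CPM levels of Cd74 and RT1-Db1 in T-like cells are those given above, and Cd74 was below the rest of the library, where it stood at 1669.8 and 1550.2 CPM. RT1-Bb had 82 UMIs in the aged and none in the young cells, at least 20.6-fold higher, and it was at 289 and 6.55 CPM in the rest of the library. Without the cells that held RNA of other types, the log2 ratio of Cd74 was 3.11, that of RT1-Ba was 2.47 in place of 1.69, and that of RT1-Da was 3.26 in place of 1.80. Of 15 class I genes 2 were higher and 1 lower, against 5.89% and 9.04% of all genes. RT1-A1 (940 and 294 UMIs) and RT1-A2 (535 and 817) lay on opposite sides, and these genes are near copies.

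More early response genes were higher than lower in aged T-like cells, with a median log2 ratio of 0.67 against -0.11 over all genes. Of 30 measured, 11 were at least 2-fold higher in aged T-like cells and 1 was lower, against 5.89% and 9.04% of all genes. Junb, an AP-1 subunit, was at 2500.5 and 1109 CPM (1.17, 1.05 to 1.30), and Tnfaip3, which ends NF-kB signalling, had 43 and 8 UMIs (2.02). Fosb, another AP-1 subunit, was at 378 and 936 CPM (-1.31, -1.51 to -1.11) and Fos at 618 and 1150.4 CPM (-0.90, -1.06 to -0.73). Atf3, the stress factor named in the study's title for chondrocytes, had 41 UMIs in the aged T-like cells, but 32 of them lay in 1 cell and it was found in 4 aged and 1 young cell. Without the cells of other types 9 aged UMIs and 1 young UMI were left. Of 15 interferon response genes 5 were higher and 1 lower. Ifitm1 was at 1568 and 637 CPM (1.30, 1.14 to 1.46), and Ifitm3 had 6 and 37 UMIs (-3.03). Of 16 cell cycle genes 1 was higher and 1 lower, near the shares over all genes. At least 3 Mki67 or Top2a UMIs were found in 10 aged (5.13%) and 5 young T-like cells (6.49%).

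To set detection at equal depth, each T-like cell was thinned to 1000 UMIs, for which all 195 aged and 77 young cells were deep enough. A Ccl5 UMI then remained in 32.8% (26.3 to 39.9%) of the aged and 9.09% (3.73 to 17.8%) of the young cells, against 35.4% and 11.7% unthinned. Gzmk was found in 15.4% (10.6 to 21.2%) and 2.60% (0.316 to 9.07%), against 19.5% and 5.19% unthinned. Faslg was found in 13.3% (8.90 to 18.9%) of aged cells and in 0 of 77 young cells, which allows a share of up to 3.90%, against 32.3% and 5.19% unthinned. Rgs1 was found in 45.6% (38.5 to 52.9%) and 14.3% (7.35 to 24.1%), against 72.8% and 54.5% unthinned. Klra22 was found in 2.05% (0.562 to 5.17%) and 26.0% (16.6 to 37.2%), against 5.13% and 51.9% unthinned. These 5 pairs of thinned intervals did not overlap. Lck, at 32.8% and 35.1%, Cd2, at 35.9% and 40.3%, and Lat, at 21.0% and 24.7%, had overlapping intervals, as did Ccl4 at 35.4% and 31.2%.

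Background was read from B lineage cells with no CD3 UMI, 2215 in the aged library with a median of 2281 UMIs and 5252 in the young library with a median of 3349 UMIs. At 1000 UMIs, Ccl5 was found in 0 of 2186 aged B lineage cells, which allows up to 0.137%, and in 0.153% of 5245 young ones, and Faslg in 0 and 0.0381%. Klra22 was found in 0 and 0.0191% of them, and Rgs1 in 2.42% and 1.83%. The T-like shares above were higher than these in each library but for Faslg in young cells. Cd69 appeared in 38.5% (aged) and 15.6% (young) of T-like cells but also in 21.4% and 16.9% of the B lineage cells, Junb in 73.8% and 45.5% against 37.1% and 37.7%, and Cxcr4 in 53.3% and 32.5% against 47.7% and 44.7%. B lineage cells are known to transcribe these 3 genes themselves, so for them the B lineage shares give no level of free RNA. Gzmm was found in 26.2% and 51.9% of T-like cells and in 1.42% and 5.82% of the B lineage cells.

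**Figure D5:**
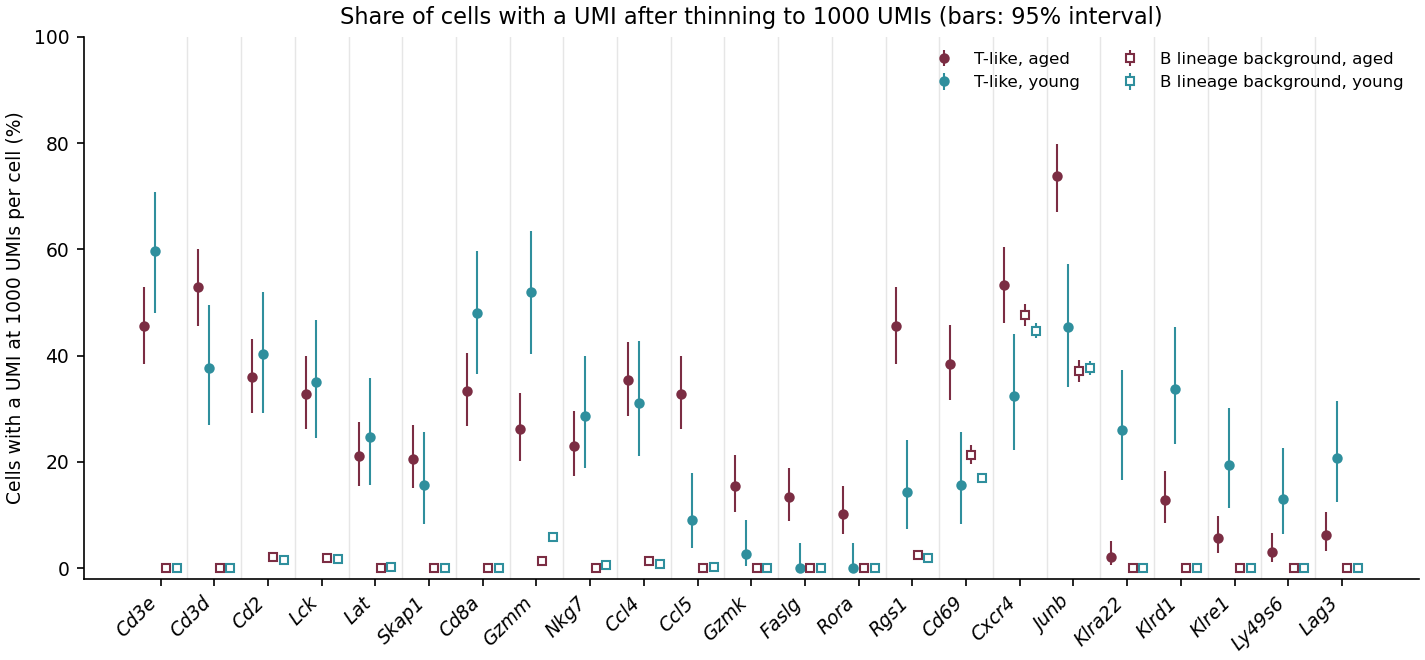
Points give the percent of cells with at least 1 UMI of each gene after thinning every cell to 1000 UMIs, with exact 95% intervals (filled circles T-like cells, open squares B lineage cells without CD3, dark red aged, teal young). Ccl5, Gzmk, Faslg and Rgs1 are found in more of the aged T-like cells and Klra22, Klrd1 and Gzmm in more of the young ones, while Cd69, Cxcr4 and Junb are also frequent in the B lineage cells.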

How the data were processed

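Raw UMI counts per gene and barcode were used as deposited, from 1 filtered droplet matrix per age. Cell Ranger 6.1.1 made the counts, per the submitters' processing notes; the genome build was not given in the sources used here. The CD3-rule cells were selected by script (pandas 2.3.3, scipy 1.17.1 and numpy 2.4.6 under Python 3.11.15). Kept cells held 43170013 UMIs in the aged and 61784536 in the young library. Counts were summed per library and group and divided by the group's total (CPM), and ratios carry exact conditional binomial 95% intervals. Genes with at least 20 summed UMIs were described, and 2-fold was the size for a call. Where a library had 0 UMIs, a floor of 3 counts per library gave a bound. Shares carry exact Clopper-Pearson intervals. UMIs are not independent of the cell that holds them, so all intervals and floors cover counting error only.

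Members and gene lists were chosen with earlier results of these data known, and the split into T-like, CD79-high and Cd3g-only cells was added after seeing the data. Named genes were the 15 highest and 15 lowest ratios that reached 50 CPM in 1 library and 30 UMIs in all (mitochondrial, ribosomal, haemoglobin, immunoglobulin and uncharacterised genes left out), the 15 highest over the rest of the library, and fixed lists. Genes of those lists without a matching symbol in the files were not analysed here, and a few results are not reported here. Scrublet (scanpy 1.11.5) called no cell a doublet, so it did not work here, and leaving out the top 8% of its scores was tried in its place. Size factors came from edgeR 4.0.16 (TMM) and DESeq2 1.42.0 in R 4.3.3 as alternatives, with no test. The ratio and interval code was tested on simulated counts.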

Additional observations from a re-analysis of the deposited data

How the results depend on the processing

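Of 1250 gene ratios recomputed in T-like cells under the settings tried, 1098 stayed within the counting interval of the value reported, 150 moved outside it, and 2 of genes at least 2-fold apart turned their sign. Leaving out cells with markers of other types left T-like shares of 2.56% aged and 0.251% young, and CD3-rule shares of 2.66% and 0.251%. Under that setting the CD3-rule ratios of Lck (-0.032), Skap1 (-0.20) and the T cell marker median (-0.25) turned negative, Fcer1g in T-like cells turned to 1.71, and the genes lower in aged cells numbered 215 (CD3-rule) and 209 (T-like). At a CD3 minimum of 3 the CD3-rule shares were 3.55% and 3.33%, with 1378 genes lower. At a minimum of 1 they were 10.96% and 15.1%, and the aged T-like share was 3.73%. Raising the gene minimum to 1000 and lowering the mitochondrial limit to 10% gave shares of 6.66% and 7.19%. With at most 1 Lyz2 UMI the young share was 3.91%, and the T-like stromal median was 0.90 in place of -3.91. Thinning to 1000 UMIs gave 270 higher genes in CD3-rule cells and 165 higher and 110 lower in T-like cells, with Pdcd1 at -0.019 and the T cell cytokine median at -0.50. With at least 50 summed UMIs 370 genes were higher and 486 lower in CD3-rule cells, 150 and 152 in T-like cells, and the cytokine median was -0.25. With no such filter the higher genes were 1240 and 841, and 1530 were lower in T-like cells. The mean of per-cell CPM gave 1831 lower genes in CD3-rule cells. Without cells holding 50 UMIs of another type the T-like erythroid median was -1.62 in place of 3.71. The causes of these shifts were not tested. No paired analysis was possible because each age had 1 library, which also leaves no replicate to leave out. Depth limits genes with few UMIs, such as Il17a, Foxp3 and Cd4.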
